A study of Mus musculus with 6 samples.

Results

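Rab GTPases and the machinery that forms and releases vesicles were examined in the livers of Trem2-deficient and wild-type mice, in their resident macrophages, the Kupffer cells. The members were taken by name from the protein-coding genes of the deposited count table: every Rab gene with a plain family number, every Chmp1 to Chmp7 gene, and 14 further genes of vesicle formation and release. This gave 84 gene entries for 83 symbols, since Hgs has 2 entries, out of 22046 protein-coding genes and 54532 genes in all. Of the 84, 59 were Rab genes and 25 were ESCRT and other release genes.

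The study held 6 libraries. The 3 WT libraries came from littermates with intact Trem2, and the 3 Trem2_KO libraries from mice lacking Trem2, the gene of a lipid-sensing receptor of macrophages. Mice of both groups were 8 weeks old when a high fat diet began and ate it for 8 weeks, so both groups carry the diet and no lean group was analysed here. All mice were male, and the cells were sorted. The labels do not say whether a library is 1 mouse or a pool, whether the deletion is confined to a cell type, or which markers were used in the sort.

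Rab proteins are small GTPases that sit on a membrane in the GTP-bound form and recruit the motors, tethers and fusion factors that move a vesicle to its target. Each Rab marks its own compartment, from the endoplasmic reticulum and Golgi to early, recycling and late endosomes. The ESCRT complexes bud vesicles into the lumen of endosomes, and when such a multivesicular body fuses with the cell surface its vesicles leave the cell as exosomes. Macrophages rely on these steps to mature phagosomes, to return receptors to the surface and to release vesicles.

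Levels of 1 gene across libraries are given as CPM, the reads of a gene scaled to the size of its library. Trem2 itself had 84.8, 90.1 and 84.3 CPM in WT libraries and 16.6, 17.4 and 14.5 CPM in those of Trem2_KO. Every knockout library lay below every WT library, with a log2 change of -2.42 (SE 0.0641, n = 3 per group, edgeR adjusted p = 1.68e-35). The sources used here do not name the deleted exons, and some reads were still assigned to the gene. Total counts ran from 15799351 to 17135603 per library, and 3 reads, which a gene with none could have had by counting error, are worth 0.173 to 0.192 CPM. Nothing in the labels ties the libraries to separate mice, so the p-values below measure the spread between these libraries, which may be technical. Of 12 Kupffer cell and macrophage markers all were measured, at a summed 51704 to 53678 CPM in WT and 46562 to 47664 CPM in Trem2_KO. Of these markers, 9 were called lower and 0 higher (edgeR; 0 higher also at an unadjusted p under 0.05 and with DESeq2). Of 12 sinusoidal endothelial markers, 10 were called higher and 1, Cdh5, lower, with a median log2 change of 0.44. Their summed levels were 2005 to 2027 CPM in WT and 1978 to 1990 CPM in Trem2_KO. Most of that sum came from Cdh5 (means of 1257 CPM in WT and 1129 CPM in Trem2_KO) and Stab2 (406 and 429 CPM). Of 12 hepatocyte markers 4 were called higher and 5 lower, with sums of 1614 to 1673 and 1396 to 1445 CPM. Cholangiocyte markers summed to 0.575 to 1.85 CPM in WT and 0.668 to 1.45 CPM in Trem2_KO. Monocyte, neutrophil, dendritic, B and plasma cell, T and NK cell, stellate, and platelet and erythroid markers gave 0 to 3 calls in either direction per list, some of them large. Among the monocyte markers, Ccr2 rose from 6.22 ± 0.532 to 17 ± 0.431 CPM (SD, n = 3) and Cx3cr1 from 5.52 ± 0.576 to 15.1 ± 1.19 CPM, while Treml4 and Plac8 fell. The list summed to 2056 to 2089 CPM in WT and 2028 to 2064 CPM in Trem2_KO. Most of that sum was Itgal, which was not called (means of 1537 CPM in WT and 1557 CPM in Trem2_KO). The B cell gene Ighm fell by 0.82 on the log2 scale. Stellate cell markers summed to 175 to 181 CPM in WT and 217 to 219 CPM in Trem2_KO. The part of these other cells in the results below was not tested. In bulk RNA, fewer cells of a type and less RNA per cell cannot be told apart.

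Most members differed little between the groups. Of the 84 entries, 64 passed the filter on low counts and were tested with edgeR's quasi-likelihood test, with p-values adjusted by Benjamini-Hochberg over all 13776 genes tested. A gene was called at an adjusted p under 0.05. Of the 64 tested members, 3 were called higher and 14 lower in Trem2_KO, which is 4.69% and 21.9%, while 15.3% of all tested genes were called higher and 15.1% lower. The 3 include Rab4a, which passed the filter through the knockout libraries, where it was high. Calls in either direction made up 26.6% of the members and 30.4% of all tested genes. The median log2 change was -0.064 over the members and -0.0051 over all tested genes, and the log2 change lay within 0.1 of 0 for 36 of the 64 members (56.2%) against 34.2% of all tested genes. The estimate was below 0 for 46 members (71.9%) and above 0 for 18, against 51% below 0 over all tested genes. Scaling by total counts in place of TMM gave 5 called higher and 10 lower, with 41 estimates below 0. Removing the trend of counts on gene length gave 40 estimates below 0 and 24 above.

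The falls were small. Among the 17 called members, 3 changed by at least 1.25-fold (Flot1 lower, Rab3a and Rab4a higher) and 1, Rab4a, by at least 2-fold, while 40.9% of all called genes reached 1.25-fold. Rab4a had few reads and passed the low-count filter through the knockout libraries, where it was high, so its call and fold are given as a description. With the biological coefficient of variation set to 0.1 for every gene, in place of the estimated 0.0378, 1 member was called higher (Rab4a) and 0 lower. At that setting 3 members were lower at an unadjusted p under 0.05. The 2 groups of libraries did not overlap for 28 of the 64 members (43.8%), 23 of them lower and 5 higher in Trem2_KO, and for 41.6% of all tested genes.

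Members were among the more abundant genes. Of the 64, 31 stood in the most abundant of 4 equal groups of tested genes ranked by CPM. In that group 53.2% of all genes were called, and of these 31 members 11 were called, each of them lower. In sum, the Rab genes had 3883 to 3938 CPM in WT and 3682 to 3707 CPM in Trem2_KO. The ESCRT and release genes had 3205 to 3262 and 3055 to 3116 CPM, and for both sums every knockout library was below every WT library. The same held for the sum over all 54532 genes, at 1008926 to 1016122 CPM in WT and 990110 to 992242 CPM in Trem2_KO under this scaling.

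**Figure D1:**
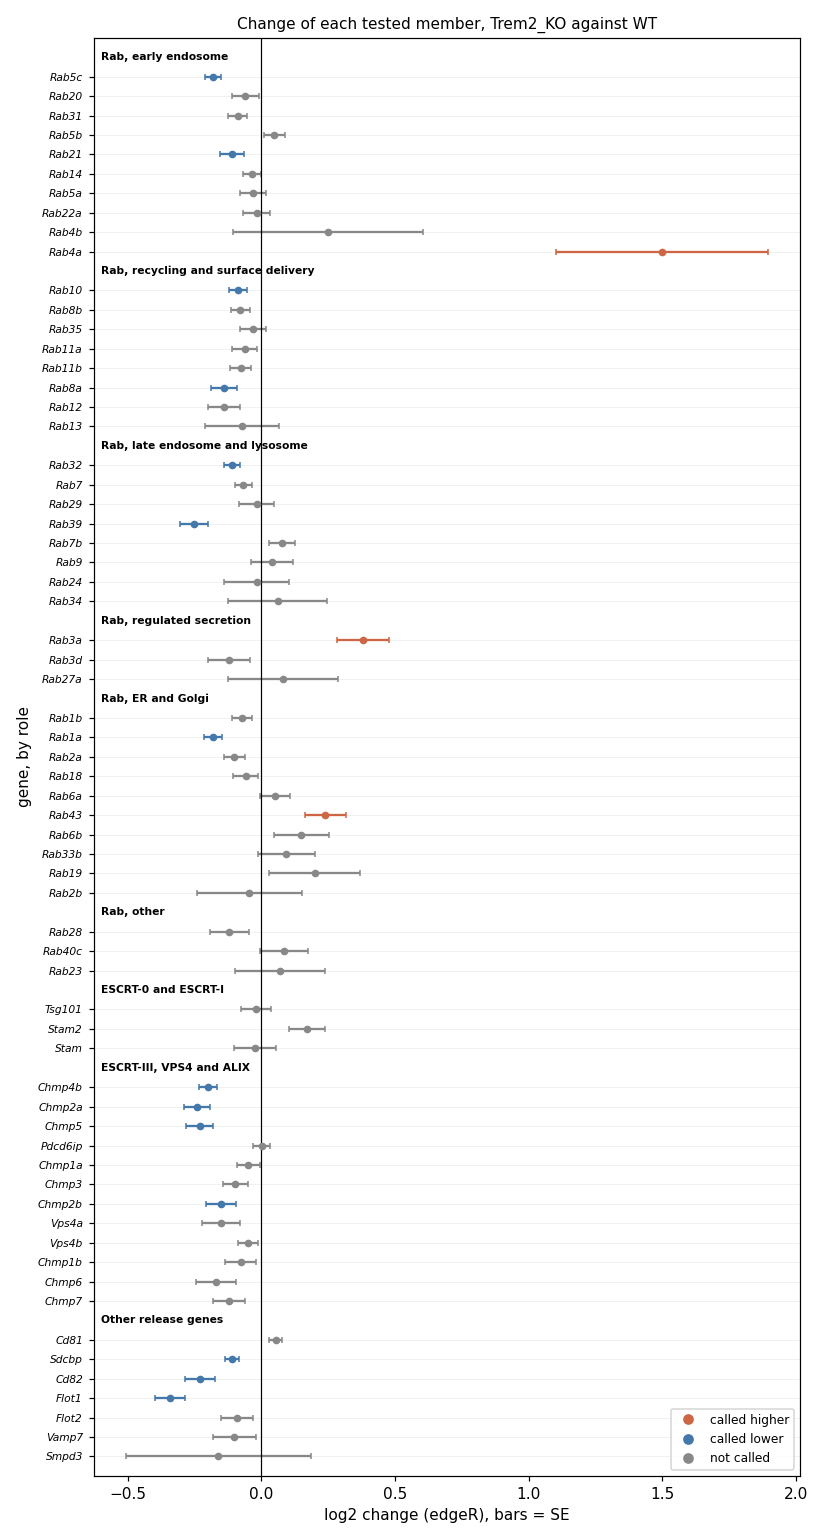
The log2 change of each of the 64 tested members (x axis, Trem2_KO against WT, with its standard error) is drawn by role (y axis). The 14 members called lower lie between -0.34 and -0.087, and the member furthest from 0 is Rab4a at 1.5 with an SE of 0.397.

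The members differed widely in level. Levels are compared between genes as deposited FPKM, which scale the reads of a gene to its length and to the size of the library. The tetraspanin Cd81, a scaffold of membrane microdomains, stood highest at 327 ± 2.68 FPKM in WT and 339 ± 2.34 in Trem2_KO (SD, n = 3). Rab32, a Rab of lysosome-related organelles and phagosomes, followed at 195 ± 3.01 and 180 ± 5.62 FPKM, and Rab5c, a Rab of early endosomes, at 190 ± 4.46 and 167 ± 1.74 FPKM. The ranges of Rab32 and Rab5c were close in WT, and their order was not tested. Chmp4b, the ESCRT-III filament subunit, was at 134 ± 5.89 and 117 ± 3.69 FPKM. Rab7, the Rab of late endosomes, was at 114 ± 4.26 and 109 ± 1.27 FPKM, and the syntenin gene Sdcbp at 103 ± 0.918 and 94.9 ± 2.98 FPKM.

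Several related genes differed more in level from each other than between the genotypes. Rab5c exceeded Rab5b (31.3 ± 1.44 FPKM in WT, SD, n = 3) and Rab5a (14 ± 0.323 FPKM). Rab32 was read at 195 FPKM on average in WT while its relative Rab38, which serves melanosomes beside it, had 0 to 8 reads in a library. Rab7 lay above Rab7b (15 ± 0.118 FPKM in WT), and Rab8b (43.4 ± 1.66) above Rab8a (19.6 ± 0.838). Rab11a and Rab11b, the recycling endosome pair, were close, at 26.9 ± 1.02 and 25.1 ± 0.887 FPKM in WT. The sources used here do not give how reads that fit several genes were treated, so the split between close relatives is uncertain.

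**Figure D2:**
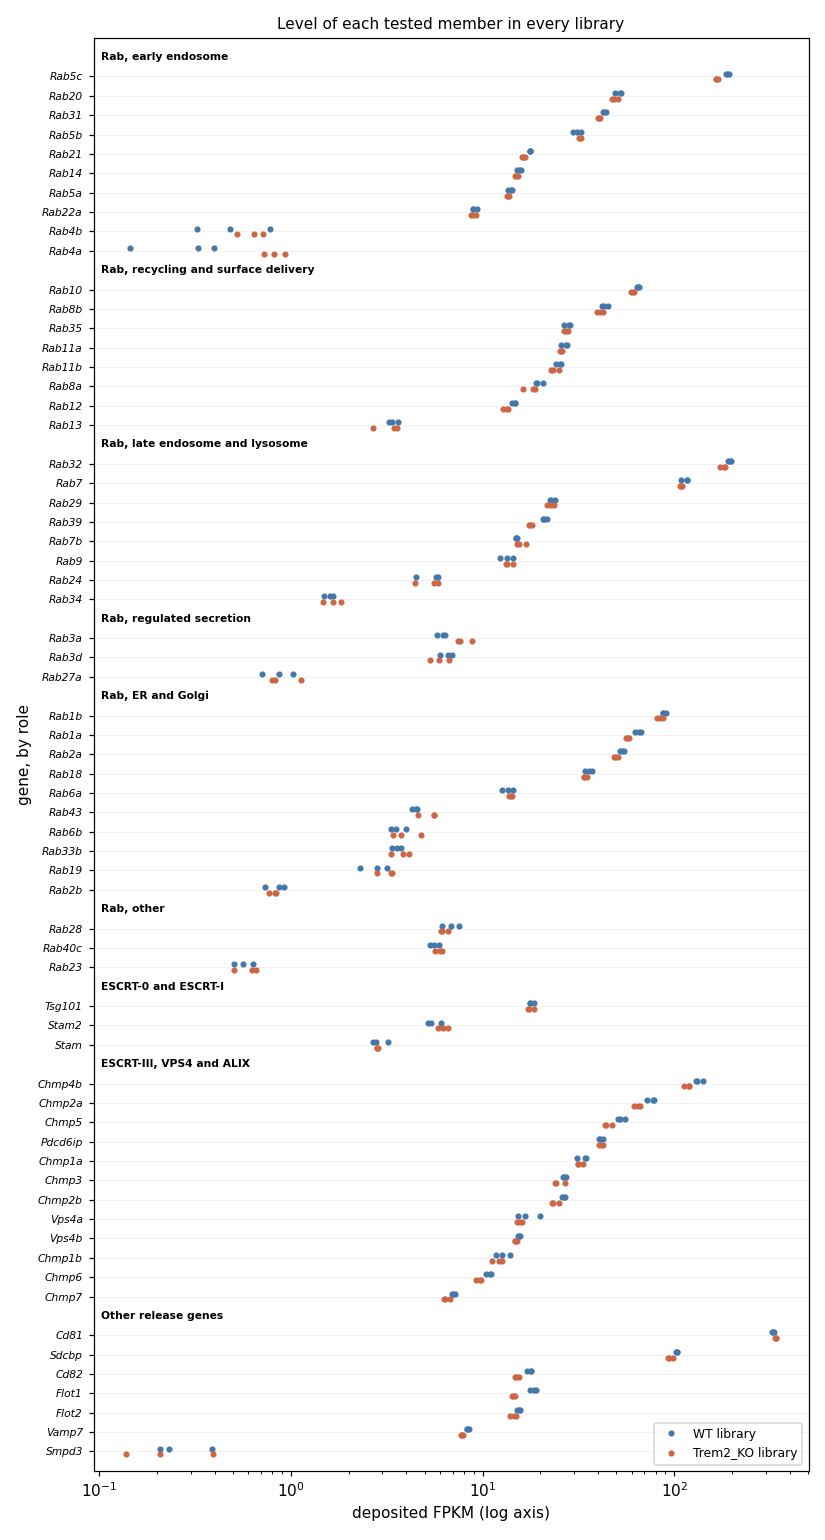
Each point is 1 library's deposited FPKM (x axis, log scale) for a tested member (y axis, grouped by role), with WT and Trem2_KO drawn side by side. Cd81, Rab32 and Rab5c stand highest, at mean values of 333, 188 and 178 FPKM over all 6 libraries, and for most genes the points of both groups lie close together.

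The 20 untested entries had few reads or none. Of these, 4 had no read in any library (Rab3c, Rab9b, Rab15 and the second Hgs entry), and 19 stayed under 10 reads in every library. The exception was Chmp4c, with 16, 7 and 7 reads in WT and 8, 32 and 7 in Trem2_KO. Rabs known from neurons, epithelia and exocrine glands were in this group, such as Rab3b (8, 2 and 1 reads in WT, 2, 1 and 4 in Trem2_KO), Rab25 (4, 4 and 2 against 4, 5 and 1) and Rab17 (2, 4 and 2 against 3, 2 and 5). The group also held Rab26, Rab30, Rab33a, Rab36, Rab37, Rab38, Rab39b, Rab40b, Rab42 and Rab44.

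Early endosome Rabs held 1 rise and 2 falls among 10 tested genes (30% called, against 30.4% of all tested genes). The smallest p of the members belonged to Rab5c, which directs the fusion of endocytic vesicles with early endosomes. Rab5c (chr11:100715009-100738215, minus strand, GRCm38) was at 409, 429 and 416 CPM in WT and 373, 365 and 366 CPM in Trem2_KO. All knockout libraries were below all WT libraries, with a log2 change of -0.18 (SE 0.0292, adjusted p = 1.43e-06). The other Rab5 genes were not called. Rab5b was at 126, 132 and 138 CPM in WT and 136, 135 and 139 CPM in Trem2_KO, a log2 change of 0.048 with a 95% interval of -0.0309 to 0.127. Rab5a, which lies 5.13 Mb from Trem2 on chromosome 17, had a log2 change of -0.031 (95% interval -0.127 to 0.065). Whether Rab5c differed from its relatives in its change was not tested.

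Rab4a (chr8:123805985-123835287, plus strand), which sends receptors from early endosomes quickly back to the surface, had the largest change and among the lowest levels of the tested members. Its values were 0.702, 0.256 and 0.575 CPM in WT, or 11, 4 and 9 reads, and 1.45, 1.27 and 1.65 CPM in Trem2_KO, or 25, 21 and 28 reads. Every knockout library was above every WT library, with a log2 change of 1.5 (SE 0.397, adjusted p = 0.00261). It was the member that passed the low-count filter through the knockout libraries, since 1 WT library reached the filter's 0.62 CPM. Its relative Rab4b was at 0.958, 1.53 and 0.639 CPM in WT and 1.04, 1.27 and 1.41 CPM in Trem2_KO and was not called (adjusted p = 0.648). A further gene entry, Gm21983, shares 65% of the exon bases of Rab4b on the same strand and had 0 reads. Whether that overlap moved the count of Rab4b was not tested.

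The remaining early endosome Rabs gave 1 weak call. Rab21, which carries integrins inward, was at 89.3, 89.4 and 90.2 CPM in WT and 82.1, 81.5 and 85 CPM in Trem2_KO (log2 change -0.11, SE 0.0448, adjusted p = 0.0483). The groups did not overlap, but of the 6 fits that each left out 1 library the call held in 1, that without Trem2_KO replicate 3, with adjusted p from 0.0424 to 0.159, and DESeq2 gave an adjusted p of 0.131. Rab14, Rab20, Rab22a and Rab31 had log2 changes of -0.034, -0.059, -0.017 and -0.088 and were not called.

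Recycling and surface delivery Rabs gave 2 calls among 8 tested genes (25%, against 30.4% of all tested genes), both lower and both weak. Rab8a, which serves exocytosis and the recycling of membrane, was at 90.6, 96.7 and 89.4 CPM in WT and 87.9, 86.8 and 76.9 CPM in Trem2_KO, with a log2 change of -0.14 (SE 0.0484, adjusted p = 0.0252). The third knockout library was the lowest, and the call was lost without it and also without WT replicate 2. Rab10, which moves cargo to the surface, was at 232, 225 and 228 CPM in WT and 211, 218 and 216 CPM in Trem2_KO (log2 change -0.087, SE 0.0329, adjusted p = 0.038). DESeq2 called neither, with an adjusted p of 0.102 for Rab8a and 0.0729 for Rab10. Without single libraries the adjusted p ran from 0.0136 to 0.262 for Rab8a and from 0.0384 to 0.159 for Rab10, which was called in 2 of 6 such fits (without WT replicate 2 and without WT replicate 3). Of the 8 tested Rabs of this role 0 were called higher, with 0 also at an unadjusted p under 0.05 and with DESeq2.

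Rab11a and Rab11b, which define the recycling endosome, were not called. Rab11a was at 82.1, 83.2 and 77.6 CPM in WT and 78.7, 76.7 and 77.5 CPM in Trem2_KO, and its 95% interval for the log2 change ran from -0.155 to 0.0333. Rab11b had a log2 change of -0.076 (adjusted p = 0.143) and was called lower without WT replicate 3 and without Trem2_KO replicate 3. Rab35, which returns receptors to the surface and has been tied to exosome docking, had a log2 change of -0.031 (95% interval -0.126 to 0.0646).

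Late endosome and lysosome Rabs held 2 falls among 8 tested genes, or 25% called, near the 30.4% of all tested genes. Rab39, which has a part in phagosome acidification and autophagy, was at 62.1, 62.4 and 65.1 CPM in WT and 53, 52.4 and 54.5 CPM in Trem2_KO. The groups lay well apart, with a log2 change of -0.25 (SE 0.0523, adjusted p = 0.000195). Rab32 was at 450, 460 and 465 CPM in WT and 410, 427 and 435 CPM in Trem2_KO, a log2 change of -0.11 (SE 0.0291, adjusted p = 0.00189). Rab32 lost its call once the trend of counts on gene length was taken out (adjusted p = 0.257).

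Rab7, which drives the fusion of late endosomes with lysosomes, was at 305, 306 and 287 CPM in WT and 286, 282 and 289 CPM in Trem2_KO. The third WT library fell among the knockout libraries, and the gene was not called (log2 change -0.067, 95% interval -0.131 to -0.00359, adjusted p = 0.104). Without that library Rab7 was called lower (adjusted p = 0.0148). Rab7b, Rab9, Rab24, Rab29 and Rab34 had log2 changes of 0.077, 0.039, -0.017, -0.017 and 0.061 and were not called. Rab24 shares 62.4% of its exon bases with Prelid1 on the other strand, which had 11923 reads against 1053, so its own level is uncertain.

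Rabs of regulated secretion were scarce, and 1 of the 3 tested rose (33.3% called, against 30.4% of all tested genes). Rab3a, known best for synaptic vesicle release, was at 13.9, 14.3 and 12.9 CPM in WT and 16.6, 17.1 and 19.8 CPM in Trem2_KO. Every knockout library was above every WT library, with a log2 change of 0.38 (SE 0.0974, adjusted p = 0.00186). Rab3a shares 1.3% of its exon bases with Mpv17l2 on the other strand, whose log2 change was -0.21. Rab3d, a Rab of secretory granules, overlapped between groups (29.2, 27.9 and 25.4 CPM against 22.6, 25.1 and 28.3 CPM) and was not called.

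The Rab27 genes, which dock multivesicular bodies at the surface for exosome release, did not move detectably. Rab27a was at 2.75, 3.39 and 4.03 CPM in WT and 3.24, 3.1 and 4.41 CPM in Trem2_KO, with the groups mixed. The log2 change of Rab27a was 0.081, with a 95% interval of -0.33 to 0.493, which holds the change seen in Rab3a. Rab27b was read 0, 2 and 2 times in WT and once in each knockout library.

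ER and Golgi Rabs gave 1 fall and 1 rise among 10 tested genes (20% called, against 30.4% of all tested genes). Rab1a, which governs transport from the endoplasmic reticulum to the Golgi, was at 251, 255 and 238 CPM in WT and 219, 214 and 223 CPM in Trem2_KO. No knockout library reached a WT library, with a log2 change of -0.18 (SE 0.0336, adjusted p = 2.22e-05). Its relative Rab1b was at 161, 168 and 162 CPM in WT and 150, 161 and 156 CPM in Trem2_KO, a log2 change of -0.072, and was not called (adjusted p = 0.142).

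Rab43, a Golgi Rab with a part in phagosome maturation, was at 23.8, 24.9 and 25.4 CPM in WT and 31.2, 30.8 and 25.7 CPM in Trem2_KO. The third knockout library stood just above the highest WT library. The log2 change was 0.24 (SE 0.0765, adjusted p = 0.0115), and the call was lost without WT replicate 1, without Trem2_KO replicate 1 and without Trem2_KO replicate 2 (adjusted p up to 0.0901), and with DESeq2 (adjusted p = 0.0833). The entry Gm45140 shares 75.4% of the exon bases of Rab43 on the same strand. It had 79 reads against 2641 for Rab43, and a log2 change of 1.5. The other ER and Golgi Rabs ran from -0.10 for Rab2a to 0.20 for Rab19 and were not called, nor were Rab23, Rab28 and Rab40c, which were listed under no compartment. Rab28 was called lower without WT replicate 3 (adjusted p = 0.0488).

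**Figure D3:**
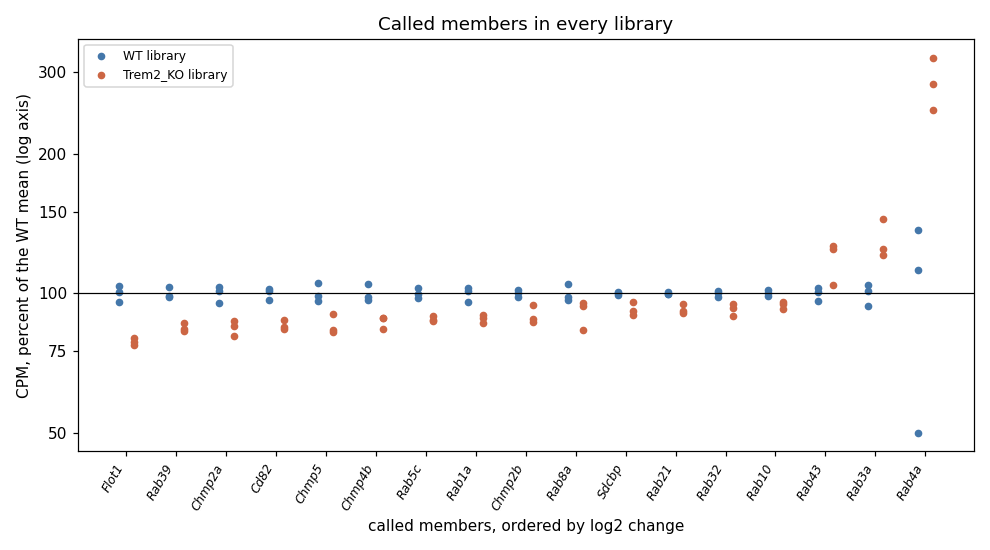
Each called member (x axis) is drawn with its 3 WT and 3 Trem2_KO libraries as percent of the WT mean in CPM (y axis, log scale). The genes run from the falls, led by Flot1, to the rises of Rab43, Rab3a and Rab4a. None of these 17 members shows overlap between the groups, but they were picked by the test between these same groups. Over all tested genes, 41.6% show no overlap. The spread within a group is widest for Rab4a, which passed the low-count filter through the knockout libraries.

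ESCRT-0 and ESCRT-I pick up ubiquitin-tagged cargo and start the bud. Tsg101, the cargo-binding subunit of ESCRT-I, was at 48.5, 50.8 and 48.7 CPM in WT and 50.9, 47.3 and 47.7 CPM in Trem2_KO, a log2 change of -0.021 (95% interval -0.134 to 0.0924). Stam, an ESCRT-0 partner, had a log2 change of -0.023 (95% interval -0.181 to 0.135). Neither was called. Stam2 was at 31.5, 36.8 and 32.4 CPM in WT and 37.8, 35.2 and 40.1 CPM in Trem2_KO. It narrowly missed the threshold (log2 change 0.17, SE 0.0674, adjusted p = 0.0514), and passed with total counts (adjusted p = 0.0195), without WT replicate 2 and without Trem2_KO replicate 2. Hgs, the other ESCRT-0 subunit, could not be assessed. Its 2 entries (chr11:120467635-120483979 and chr11:120467635-120483984, plus strand) share 97.2% of the exon bases of the first, and together they held 3 reads over all libraries.

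ESCRT-III, whose Chmp subunits polymerise at the bud neck and cut it, held 4 falls. Of the 12 tested genes of ESCRT-III, VPS4 and ALIX, 4 were called lower and 0 higher (edgeR; 0 higher also at an unadjusted p under 0.05 and with DESeq2), with a median log2 change of -0.13. The share called was 33.3%, against 30.4% of all tested genes. Chmp4b (chr2:154651705-154694785, plus strand), the main filament subunit, was at 265, 287 and 269 CPM in WT and 243, 242 and 230 CPM in Trem2_KO. Its groups did not overlap (log2 change -0.20, SE 0.0339, adjusted p = 4.33e-06). Chmp2a, a later subunit that draws in VPS4, was at 89.9, 91.8 and 84.9 CPM in WT and 77.6, 72 and 75.6 CPM in Trem2_KO (log2 change -0.24, SE 0.0473, adjusted p = 4.74e-05). All knockout libraries of Chmp2a were below all WT libraries.

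Chmp5, an ESCRT-III accessory subunit, was at 77.3, 84.7 and 79.3 CPM in WT and 72.7, 67.1 and 66.5 CPM in Trem2_KO. It fell by 0.23 on the log2 scale (SE 0.0498, adjusted p = 0.00031) and missed the threshold after correction for gene length (adjusted p = 0.0524). Chmp2b, the close relative of Chmp2a, was at 52.1, 50.3 and 51.4 CPM in WT and 48.4, 45.2 and 44.6 CPM in Trem2_KO. The groups did not overlap, at a log2 change of -0.15 (SE 0.0564, adjusted p = 0.0335), with an adjusted p of 0.126 with DESeq2. It was called in 2 of the 6 fits that each left out 1 library (adjusted p 0.0214 to 0.131), without WT replicate 2 and without Trem2_KO replicate 1. Chmp1a, Chmp1b, Chmp3, Chmp6 and Chmp7 had log2 changes of -0.049, -0.077, -0.097, -0.17 and -0.12 and were not called. Without Trem2_KO replicate 1 Chmp3 was called lower (adjusted p = 0.0245). The groups did not overlap for Chmp6 (27.1, 26.9 and 25.5 CPM against 24.2, 22.6 and 23.7 CPM) or for Chmp7.

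The genes of VPS4 and ALIX were not called. Vps4b, an ATPase that takes the ESCRT-III filament apart, was at 140, 138 and 137 CPM in WT and 137, 133 and 133 CPM in Trem2_KO (log2 change -0.048, 95% interval -0.124 to 0.0278). Vps4a was at 38.8, 50.5 and 42.4 CPM in WT and 40.6, 38.5 and 39.6 CPM in Trem2_KO. The second WT library stood above the rest (log2 change -0.15, adjusted p = 0.108), and without WT replicate 1 the gene was called lower (adjusted p = 0.0119). Pdcd6ip, which encodes ALIX, the link between syntenin and ESCRT-III, was at 283, 282 and 297 CPM against 287, 280 and 295 CPM. The groups were mixed, and the 95% interval for the log2 change of 0.0013 ran from -0.0628 to 0.0653.

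Among the other release genes, 3 of 7 were called lower and 0 higher (edgeR; 1 higher at an unadjusted p under 0.05, 0 with DESeq2), or 42.9% against 30.4% of all tested genes. Flot1 (chr17:35823230-35832791, plus strand), a flotillin of cholesterol-rich membrane domains, was at 53.7, 55.3 and 51.1 CPM in WT and 42.7, 41.3 and 42 CPM in Trem2_KO. It had the largest fall of the members, a log2 change of -0.34 (SE 0.0568, adjusted p = 2.54e-06), and every knockout library lay below every WT library. Flot1 lies 12.5 Mb from Trem2 on chromosome 17. Within 20 Mb of Trem2, 43.5% of 363 tested genes were called, and 1 of 5 tested members (Flot1, lower). The 59 members outside that window held 3 higher and 13 lower, while 15.3% of all tested genes were called higher and 15.1% lower. The 3 include Rab4a, which passed the low-count filter through the knockout libraries. Flot2, the partner of Flot1 on chromosome 11, had a log2 change of -0.091 (95% interval -0.211 to 0.0289) and was not called.

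The syntenin gene Sdcbp, whose product loads syndecans and tetraspanins into exosomes, was at 713, 718 and 707 CPM in WT and 653, 642 and 682 CPM in Trem2_KO. The groups did not overlap, with a log2 change of -0.11 (SE 0.0271, adjusted p = 0.000883). The tetraspanin Cd82 was at 54, 51.6 and 54.5 CPM in WT and 46.9, 44.7 and 45.2 CPM in Trem2_KO (log2 change -0.23, SE 0.0557, adjusted p = 0.00121). Cd81 was at 943, 953 and 939 CPM in WT and 985, 973 and 986 CPM in Trem2_KO. Its knockout libraries were all above the WT libraries, by a log2 change of 0.054 that was not called (SE 0.025, adjusted p = 0.0947). Total counts gave a call of Cd81 as higher (adjusted p = 0.00647), as did the correction for gene length (adjusted p = 0.000164).

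Vamp7, a vesicle SNARE of lysosome exocytosis placed on the scaffold GL456233.1, was at 21.1, 21.7 and 21.2 CPM in WT and 19.8, 19.7 and 20.2 CPM in Trem2_KO. The groups did not overlap, but the gene was not called (log2 change -0.10, 95% interval -0.265 to 0.0646). Smpd3, which encodes the neutral sphingomyelinase of ESCRT-independent budding, was at 1.09, 2.05 and 1.21 CPM in WT and 1.1, 0.728 and 2.06 CPM in Trem2_KO. At 12 to 35 reads per library, a change within its 95% interval of -0.856 to 0.541 was not detectable at this depth.

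Other genes of the pathway were called in both directions. Of 183 tested genes in 8 lists of Rab regulators, Rab effectors and further trafficking machinery, 37 were called higher (20.2%) and 28 lower (15.3%), with a median log2 change of 0.036. Over all tested genes 15.3% were called higher and 15.1% lower, so the lower share was near the background. Rab activators held 7 higher and 3 lower of 32, and Rab inactivators of the TBC family 5 higher and 2 lower of 29. Among activators, Rab3il1 changed by -0.35 on the log2 scale, Dennd4a by 0.54 and Rin3 by -0.21. Among inactivators, Tbc1d9 changed by 0.21, Tbc1d23 by 0.22 and Tbc1d5 by -0.18.

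Rab effectors, the proteins that an active Rab recruits, held 8 higher and 3 lower of 26 (30.8% and 11.5%). Over all tested genes the shares were 15.3% and 15.1%. Myo5a, the myosin motor that carries Rab27a and Rab11 vesicles, was at 1 ± 0.416 CPM in WT and rose to 6.29 ± 0.466 CPM (SD, n = 3). Its log2 change was the largest of this list, 2.64 (SE 0.234, adjusted p = 1.31e-13), while Rab27a and Rab11a were not called. Appl2 and Rilpl2 changed by 0.23 and 0.22. Other ESCRT subunits and partners held 5 higher and 4 lower of 19 (26.3% and 21.1%). The 4 lower were the ESCRT-I subunit Vps37b (-0.37), Vps28, Mvb12a and Snf8. The 5 higher were the ALIX-related phosphatase Ptpn23 (0.28), the ubiquitin ligase Itch (0.18), Usp8, Arrdc1 and Ist1.

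Tetraspanins outside the members showed the largest moves of these lists, with 7 higher and 4 lower of 17 (41.2% and 23.5%). Over all tested genes 15.3% were called higher and 15.1% lower. Cd63, an exosome marker of late endosomes, was at 2.36 ± 0.42 CPM in WT and 29.3 ± 2.43 CPM in Trem2_KO (SD, n = 3), higher by 3.63 on the log2 scale (adjusted p = 3.18e-30). Cd9 rose from 5.26 ± 0.471 to 19.9 ± 1.14 CPM (1.92), and Tspan4 fell by 0.41. Cd81, by comparison, was at 0.054. The rises of Ccr2 and Cx3cr1 stand beside those of Cd63, Cd9 and Myo5a, and their part in them was not tested. Other SNAREs and their SM partners held 3 higher and 11 lower of 34 (8.82% and 32.4%). Ykt6 was at -0.24, Vamp8 at -0.19 and Vamp3 at -0.20. The tethers HOPS, CORVET and exocyst held 1 higher (Vps39, 0.14) and 0 lower of 19 with edgeR, 0 lower also at an unadjusted p under 0.05 and with DESeq2. Vps33a and Tgfbrap1, at 0.099 and 0.096, were not called.

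**Figure D4:**
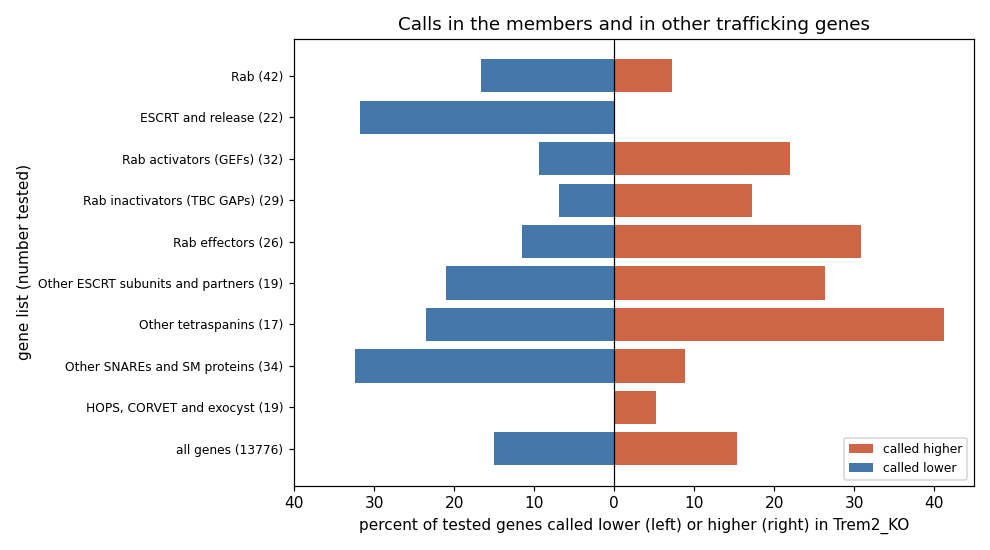
Bars give the percent of tested genes called lower (left) or higher (right) in Trem2_KO for the members and for 7 of the other trafficking lists, with the number tested in brackets and all genes at the bottom. All genes have nearly equal bars, at 15.1% lower and 15.3% higher. In the main test, ESCRT and release members have bars to the left alone (31.8%), while total counts called 2 of them higher. Rab members have 16.7% lower and 7.14% higher, the latter including Rab4a, which passed the low-count filter through the knockout libraries.

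Promoters of the members were searched for short motifs. The hexamer CACGTG, the core of the site bound by the lysosome regulators TFEB and TFE3, reads the same on both strands. It was searched in the RefSeq promoters (GRCm38.p6, 250 bases before to 50 after the start), in which 64 of the 83 symbols matched. It occurred in 7 of the 64 genes (10.9%) and in 8.91% of 17492 protein-coding genes. Of 12 matched members called lower 1 held it (Rab21), of 2 matched members called higher 0, and of 39 not called 6. These 7 genes are shown because they are all that held the hexamer, with its first occurrence in capitals, each 5′ to 3′ on the strand of the gene with the window searched. A match describes the sequence and shows no binding.
Pdcd6ip, chr9:113708210-113708509, minus strand: tggtggcaccatCACGTGaccgagcggcgc
Rab20, chr8:11478591-11478890, minus strand: cggccgggcaccCACGTGgtcgcagggctg
Rab21, chr10:115315542-115315841, minus strand: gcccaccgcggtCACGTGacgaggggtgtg
Rab23, chr1:33719646-33719945, plus strand: cttcagtgctacCACGTGagtctcaggtgg
Rab24, chr13:55321931-55322230, minus strand: cggcgcccgcgtCACGTGaccgggcgtccc
Rab27a, chr9:73063898-73064197, plus strand: cttgCACGTGctcctccgtctg
Rab5a, chr17:53478984-53479283, plus strand: aattggagaagaCACGTGacgcaaccccac

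The sites start 38 bases before the transcript start in Pdcd6ip, 46 in Rab20 and 30 in Rab21, and 2 bases after it in Rab24. Those of Rab23, Rab27a and Rab5a lie further out, 218, 246 and 235 bases before the start, and Rab5a holds 2 sites, of which the first is shown. Apart from Rab21, the carriers of the site were not called. On both strands, CCAAT occurred in 46.9% of the members' promoters and 42.3% of all protein-coding genes, and TGANTCA in 4.69% and 8.12%.

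Fixing the coefficient of variation moved the number of calls more than the other settings did. Over all settings tried, 0 to 16 members were called lower and 1 to 5 higher.

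**Figure D5:**
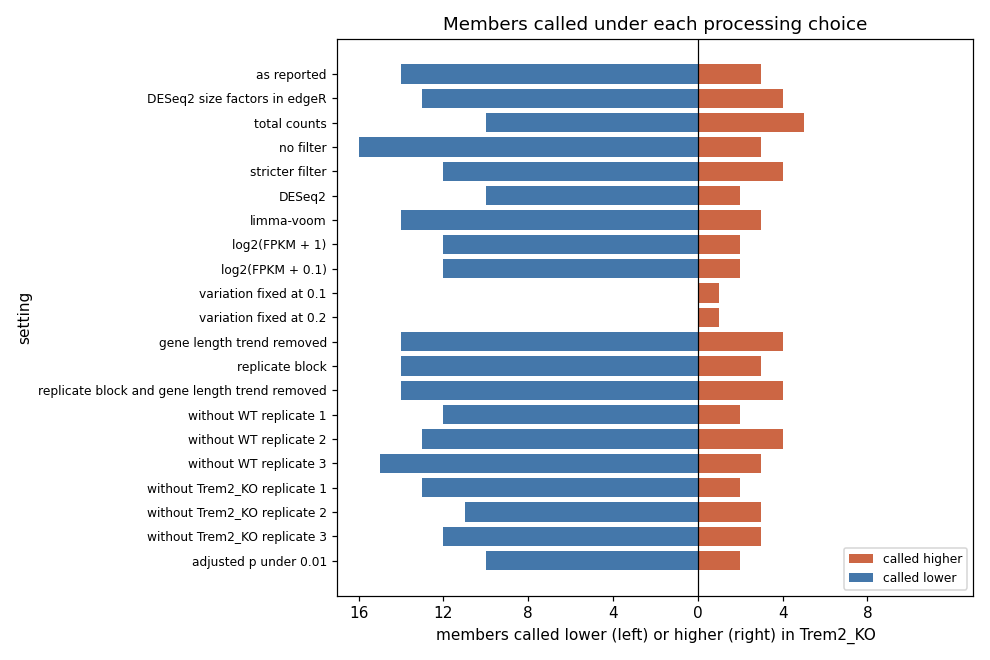
Bars give the number of members called lower (left) or higher (right) in Trem2_KO (x axis) under each processing choice (y axis). Between 10 and 16 were lower in every setting except the 2 with the coefficient of variation fixed at 0.1 or 0.2, where 0 were.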

How the data were processed

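RNA of 6 sorted Kupffer cell libraries was analysed, with groups and replicate numbers taken from the sample titles. The deposited counts are whole read counts per gene with no normalization, and the deposited FPKM are scaled to gene length and library size. Per the submitters' processing notes, the tools named were featureCounts (1.5.0-p3), HISAT2 (2.0.5) and DESeq2 (1.16.1), on GRCm38 (mm10). The sources used here do not give the strand setting or the treatment of multiply mapped or overlapping reads.

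The main test was edgeR's quasi-likelihood test (edgeR 4.0.16, R 4.3.3; low counts removed with filterByExpr, TMM scaling, robust fit, genotype as the only term) over 13776 of 54532 genes. CPM are TMM-scaled, SEs follow from the quasi-F statistic, and 95% intervals use its degrees of freedom. The test was run on simulated counts first. Floors cover counting error only. Exon overlaps were read from GENCODE M21 (GRCm38), where 83 of 84 entries matched, 80 with the same coordinates.

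Members, lists and motifs were chosen with earlier results of these data known. Within a group, chi-square per degree of freedom between libraries was 1.98 to 2.93, so none was counted as a duplicate. Values per library are given for Trem2, called members (up to 8 Rabs each way) and the 3 most abundant. They are also given for the 14 members listed by name, except Stam, Flot2 and Hgs. The further lists have log2 changes or group means for up to 3 genes by smallest p. Alternatives used DESeq2 1.42.0, limma 3.58.1 (voom, and log2 FPKM with pseudocounts 1 and 0.1), other scalings, filters, thresholds and dispersions, a gene length correction, a replicate block, and each library left out. Of the 8 further lists, 1 entered the totals and is not reported on its own here.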

Additional observations from a re-analysis of the deposited data

How the results depend on the processing

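No called member reversed its direction under any alternative run. With total counts, 5 members were called higher, 4 Rab genes lower and 2 ESCRT and release genes higher (Stam2 and Cd81), and the split over all genes was 2517 higher and 1588 lower. With the coefficient of variation fixed at 0.1, 1 member (the Rab gene Rab4a) was higher and 0 Rab or ESCRT and release genes were lower, with 938 genes higher and 549 lower over all genes. Rab4a passed the low-count filter through the knockout libraries, where it was high, so its call under any setting is only a description. At 0.2 the member counts were again 1 and 0, with 268 and 103 over all genes, and 0 members were lower at an unadjusted p under 0.05. DESeq2 called 4 Rab genes lower and 1384 genes lower in all, limma on log2(FPKM + 1) and log2(FPKM + 0.1) 4 Rab genes lower each, and a threshold of 0.01 called 4 Rab genes and 1359 genes lower. ESCRT and release genes called higher numbered 1 with DESeq2 size factors, 2 with the stricter filter of 50 reads in 3 libraries, and 1 with the gene length trend removed, with or without the replicate block. Over the libraries left out in turn that count was 0 to 1. The length correction called 14 members lower, 10 of them shared with those reported; Chmp2b, Chmp5, Rab10 and Rab32 were lost and Chmp7, Vps4b, Rab11b and Rab14 gained. The cause of these shifts was not tested. Of the 17 calls, 12 (2 higher and 10 lower) held without each library in turn, and DESeq2 kept the same numbers. In both cases Rab4a is 1 of the 2 higher. The replicate block gave 3 higher and 14 lower, and left all genes at 2119 and 2111. Same-numbered libraries had deviations that correlated with r of -0.00787, 0.00313 and 0.0361, which showed no shared deviation by number. Whether the samples were paired cannot be told from these values. Genes near 1 CPM, such as Rab4b and Smpd3, are limited by depth.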
